A study of Mus musculus with 11 samples.

Results

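Motile cilium genes were followed through a study of organoids, self-renewing 3-dimensional epithelial cultures, grown from mouse oviduct and ovarian surface epithelium (OSE) as models of high-grade serous ovarian cancer. The genes were chosen by symbol, though with earlier results of these data known: every gene of the count table named Dnah, Dnaic, Dnaaf, Rsph, Tekt or Cfap with a number, and *Foxj1*, *Dnali1*, *Dynlrb2*, *Ccdc153*, *Ccdc39*, *Ccdc40*, *Ccno*, *Mcidas*, *Rfx2*, *Rfx3*, *Ak7*, *Hydin* and *Tppp3*. They came to 26 of the 18305 genes of the table. The table lists most axonemal dynein heavy chains and ciliary Cfap genes under older symbols (such as *Dnahc5*), which the rule did not match. These 44 entries for 43 genes were picked once the table had been opened, and are described separately.

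RNA was measured in 27 bulk libraries, as follows. Oviduct tissue and OSE tissue (3 libraries each), oviductal organoids (3) and OSE organoids (2) came from wild-type C57BL/6 female mice aged 8 to 12 weeks. Each organoid line pooled at least 6 mice. Oviductal organoids of a further 3 libraries came from mice of the B6J.129(B6N) background with the Fezh allele at Gt(ROSA)26Sor, in which the CAG promoter drives Cas9 and EGFP in all cells. These Cas9-GFP organoids received no guide RNA. Mutant organoid clones made from such cells, called TBP clones (3), carry mutations from guide RNAs that include those against *Trp53* and *Brca1*, were selected with Nutlin-3a and are clonal. TBP tumors (6) grew from TBP clones in NSG mice, immunodeficient hosts whose own cells also contribute mouse RNA. Tumor-derived organoids, kept in Nutlin-3a, were either mes lines (T1-mes and T3-mes), which hold fibroblast-like cells besides epithelium, or epi lines (T2-epi and T4-epi), which are epithelial. The paper traces all of these lines to the same TBP clone. It shows T1-mes and T2-epi as lines from tumors on opposite sides of the same mouse. The oviduct libraries are whole tissue with muscle and stroma, not isolated epithelium. OSE tissue was not isolated epithelium either, since it held strong granulosa and steroidogenic markers (values below).

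Motile cilia are beating projections built on an axoneme of microtubules with dynein motor arms, radial spokes and a central pair. In the oviduct they are carried by ciliated cells, which alternate with secretory cells and move the egg, while the OSE is a flat epithelium without such cells. Multiciliated cells form when MCIDAS, acting early, switches on centriole production (with CCNO) and FOXJ1, and FOXJ1 together with RFX factors then activates the genes of the axoneme. The roles of the 26 genes fall into 5 regulators, 4 dynein intermediate or light chains, 3 cytoplasmic dynein assembly factors, 3 radial spoke proteins, 2 axonemal rulers (*Ccdc39* and *Ccdc40*), 5 tektins, which are filaments inside the microtubule wall, and 4 others: *Hydin* of the central pair, *Ccdc153*, *Ak7* and the microtubule-binding *Tppp3*.

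Because RFX proteins are textbook activators of these genes, the promoters were searched for an RFX motif and for a forkhead core, the letters read by FOX proteins. RefSeq promoters on GRCm38.p6, from 250 bases before to 50 bases after the start site, were at hand for 21 of the 26 genes, as 24 windows. *Tekt1* and *Tekt2* had several windows, and those of *Tekt2* overlapped. The intervals below treat windows as independent and are therefore rough. The RFX motif (GTTGCC or GTTACC, either strand) was in 16 of the 24 windows, or 66.7% (95% exact interval 44.7% to 84.4%, counting error only), against 18.6% of 32851 promoters of all genes. It was found in 15 of the 21 genes, and in 11 of them it lay within 60 bases of the start. The forkhead core (GTAAACA or GTCAACA, either strand) was in 4 of the 24 windows, or 16.7% (4.7% to 37.4%), against 6.06% of all promoters. *Dynlrb2* was the one gene with matches of both kinds, its RFX motif beginning 51 bases and its forkhead core 27 bases before the RefSeq start. Printed are the promoters of the 4 genes that were highest in oviduct tissue among those holding an RFX motif, up to the GENCODE gene start and 5′ to 3′ on the gene's strand. For *Dynlrb2* that start lies before the RefSeq start, so that the forkhead core is not in the stretch shown. For *Hydin* a second RFX motif, beginning 3 bases before the start, is cut off and left in lower case. Capitals mark the RFX motifs that are shown whole. A match is a run of letters and not a measured binding site, and none of these libraries measured binding.
Dynlrb2 (chr8:116504765-116504973, plus strand): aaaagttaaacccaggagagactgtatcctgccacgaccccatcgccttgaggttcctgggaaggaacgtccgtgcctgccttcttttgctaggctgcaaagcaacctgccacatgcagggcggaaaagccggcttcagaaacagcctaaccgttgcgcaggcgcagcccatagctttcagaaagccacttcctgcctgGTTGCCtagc
Ccdc153 (chr9:44240427-44240675, plus strand): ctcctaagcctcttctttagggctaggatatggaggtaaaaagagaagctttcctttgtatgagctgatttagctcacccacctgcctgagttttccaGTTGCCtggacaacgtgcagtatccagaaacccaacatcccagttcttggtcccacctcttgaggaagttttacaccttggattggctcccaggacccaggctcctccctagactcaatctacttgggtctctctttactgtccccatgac
Rfx2 (chr17:56831014-56831258, minus strand): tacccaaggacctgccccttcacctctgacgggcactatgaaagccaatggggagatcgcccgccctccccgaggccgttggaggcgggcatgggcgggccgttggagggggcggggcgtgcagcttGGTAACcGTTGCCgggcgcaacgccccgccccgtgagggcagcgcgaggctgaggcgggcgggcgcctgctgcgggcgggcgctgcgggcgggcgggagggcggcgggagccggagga
Hydin (chr8:110266727-110266976, plus strand): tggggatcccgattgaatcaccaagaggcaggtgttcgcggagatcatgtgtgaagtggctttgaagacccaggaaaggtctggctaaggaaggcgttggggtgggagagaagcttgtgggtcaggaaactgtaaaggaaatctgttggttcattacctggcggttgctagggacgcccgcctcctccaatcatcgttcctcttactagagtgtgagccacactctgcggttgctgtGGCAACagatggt

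Total reads ran from 600579 to 3083507 in 25 of the libraries. TBP clone 1 was far shallower, with 82239 reads, and TBP clone 3 was the deepest, with 4531767. Levels are given as reads, or as CPM, reads scaled to the library total and edgeR's TMM factor. A gene with up to 3 reads in a library was treated as at the floor, which was 33.5 CPM in TBP clone 1 and 0.684 to 5.18 CPM elsewhere. One OSE line stood apart from its label: OSE organoids 2 held 6401 reads on *Ovgp1*, the oviductal secretory glycoprotein, where OSE organoids 1 held 25, and the counts of members called against OSE organoids are also given without it. *Trp53* lay at 34.5 to 61.0 CPM in the Cas9-GFP organoids and at 0 to 5.02 CPM in the TBP clones. The study's methods call the tissue samples and organoid lines independent but do not tie them to mice. The p-values therefore measure the spread between these samples, which may be partly technical. The paper describes fewer independent TBP clones than there are TBP clone libraries, so some of these may share a clone. It calls the tumors independent too, but each mouse was injected with the same clone on both sides. Tumors may thus share a clone or a mouse. Tests with TBP clones, tumors or tumor-derived lines treat every library as a separate replicate, so their p-values may be too small. In bulk RNA, fewer ciliated cells and less RNA per ciliated cell cannot be told apart.

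The 26 genes took 0.167% to 0.256% of all reads in oviduct tissue and 0.0184% to 0.0366% in oviductal organoids. Their summed level was 2336 ± 501 CPM in oviduct tissue (SD, n = 3), 329 ± 117 CPM in oviductal organoids (SD, n = 3) and 153 ± 24.9 CPM in OSE tissue (SD, n = 3). In the other groups the mean lay between 38.7 CPM (epi lines) and 86.9 CPM (OSE organoids). Every oviduct tissue library thus lay above every other library, and every oviductal organoid library above all that remained. In oviduct tissue, 21 of the 26 genes were over the floor in every library, and the other 5 were *Ccno*, *Mcidas*, *Ccdc39*, *Tekt3* and *Tekt5*. That number was 14 in oviductal organoids, 6 in OSE tissue and in OSE organoids, and 1 in the Cas9-GFP organoids and in the TBP clones. The shallowest library of a group can limit it. Single libraries held 7, 7 and 7 genes over the floor in OSE tissue and 6 and 8 in OSE organoids. Cas9-GFP organoids 1 to 3 held 8, 2 and 7, and TBP clones 1 to 3 held 1, 8 and 6. *Tekt5* had 1 read in all 27 libraries together. *Rfx2* was the one gene with a read in every library, and it was over the floor in 26 of the 27.

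**Figure D1:**
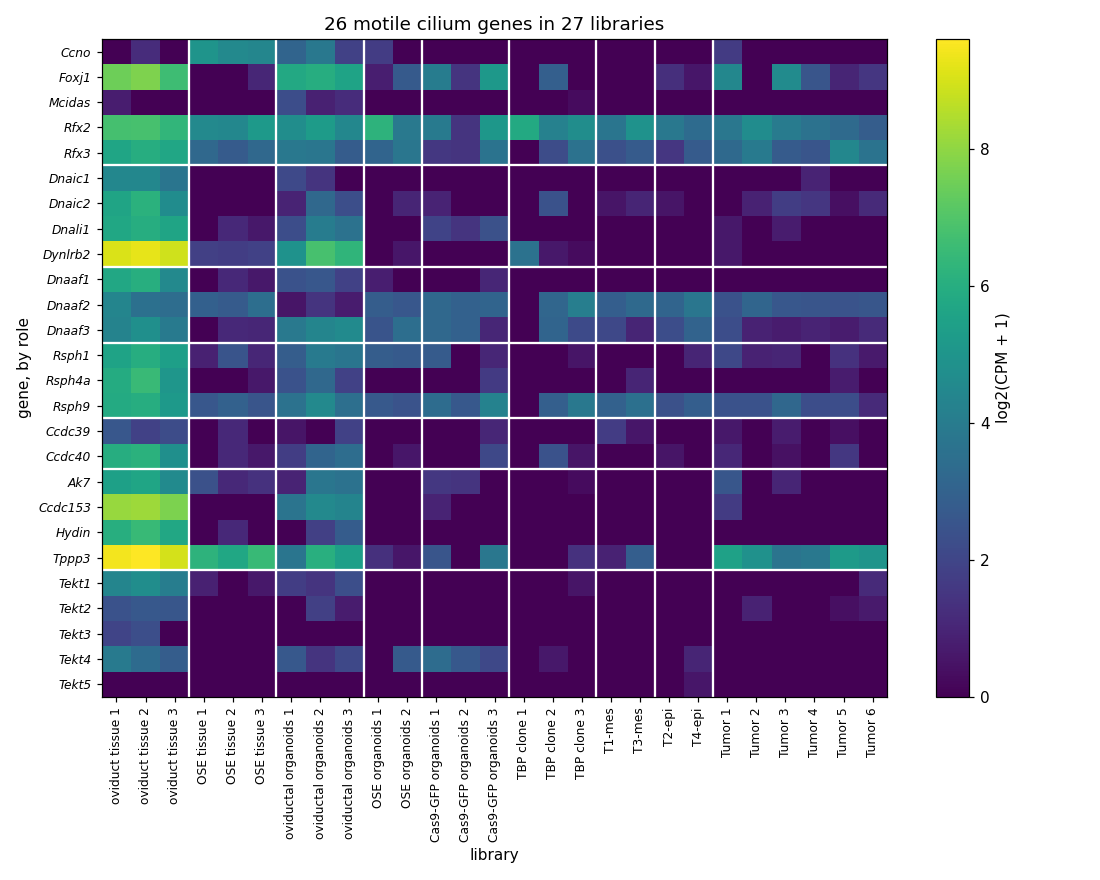
Level of each of the 26 genes (rows, by role) in each of the 27 libraries (columns, by group) as log2(CPM + 1), from dark (0) to yellow. Nearly all rows are bright in the 3 oviduct tissue libraries, dimmer in the 3 oviductal organoid libraries and mostly dark elsewhere, while *Rfx2*, *Rfx3*, *Dnaaf2* and *Rsph9* are visible in almost every group. *Tppp3* is also visible in OSE tissue and tumors, *Ccno* in OSE tissue, and *Foxj1* in some Cas9-GFP and tumor libraries.

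Oviduct tissue was compared with OSE tissue to see which of these genes mark the tissue that carries cilia. In OSE tissue 17 of the 26 genes were at or under the floor in every library. *Dynlrb2*, a dynein light chain and the most strongly differing gene by p-value, had 741, 461 and 395 reads in oviduct tissue and 3, 2 and 5 reads in OSE tissue, a log2 fold change of 7.71 (SE 0.25, edgeR adjusted p = 3.4e-11). *Ccdc153* (386, 222 and 169 reads) had none in OSE tissue, which makes it at least 102-fold higher against the floor per library (edgeR adjusted p = 9.96e-10). *Foxj1*, the master regulator of motile ciliogenesis, had 248, 161 and 80 reads against 0, 0 and 2, a ratio of 325 with a counting interval of 89.4 to 2688 (edgeR adjusted p = 8.12e-09). These 3 genes did not overlap between the tissues. The share of all genes without overlap was not counted, here or in the comparisons below.

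Of the 26 genes, 19 passed the filter on low counts, and 18 of them were higher and 1 lower in oviduct tissue. A gene near 0 reads in 1 tissue passed through the other alone, which fixed its direction. *Hydin* and *Ccdc153* passed in this way through oviduct tissue and *Ccno* through OSE tissue. Over all 8787 genes tested, 26.9% were higher and 24.3% lower. The median log2 fold change of the 19 was 6.27, or 4.73 with genes unread in OSE tissue set at their bound, against 0.00 over all genes tested. All 4 dynein chains, all 3 radial spoke genes and all 4 genes of the last group were higher, and so were the tested assembly factors (2 of 3), ruler (1 of 2) and tektin (1 of 5). The ratio was 263 for *Hydin* (198 reads against 1, counting interval 46.6 to 10433), 232 for *Rsph4a* (175 against 1, 41.2 to 9227), 106 for *Ccdc40* (160 against 2, 28.9 to 884) and 104 for *Dnali1* (157 against 2, 28.4 to 868).

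A second set of genes differed less and kept reads in OSE tissue. *Tppp3* had 955, 591 and 410 reads in oviduct tissue and 86, 44 and 166 in OSE tissue (log2 fold change 3.22, SE 0.22, edgeR adjusted p = 1.79e-08). *Rsph9*, of the radial spoke head, was higher by 3.27 (SE 0.33), *Rfx3* by 2.77 (SE 0.27) and *Rfx2* by 1.88 (SE 0.23) on the log2 scale, with edgeR adjusted p-values of 9.64e-07, 8.42e-07 and 6.98e-06. *Dnaaf2*, which helps fold dynein before it enters the cilium, had 27, 8 and 8 reads against 8, 5 and 19. It fell below the filter, and its CPM overlapped between the tissues. Its counts may share reads with Gm49383 and Gm49384, which overlap it on the same strand, as *Tnni3* overlaps *Dnaaf3*.

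*Ccno* went the other way. This cyclin-like gene, needed for mass centriole production, had 0, 1 and 0 reads in oviduct tissue and 36, 19 and 38 in OSE tissue, a ratio of 70.1 in favour of OSE tissue (counting interval 12.3 to 2797, edgeR adjusted p = 4.06e-06). All 3 OSE libraries lay above all 3 oviduct libraries. Its neighbour on chromosome 13, *Mcidas* (chr13:112993845-113000394, with *Ccno* at chr13:112987802-112990777), had 1, 0 and 0 reads in oviduct tissue and none in OSE tissue. Granulosa and steroidogenic markers, of which 8 of 9 were in the table, summed to 9623 to 11794 CPM in OSE tissue and to 66.8 to 275 CPM in oviduct tissue. Germ cell markers (3 of 5 in the table) summed to 97.1 to 204 CPM and 2.18 to 6.11 CPM. In oviductal organoids both lists were near 0 (at most 9.31 and 1.97 CPM), while *Ccno* had 16, 16 and 4 reads there. Epithelial markers (7 genes) summed to 373 to 444 CPM in OSE tissue. The part of ovarian cells in the *Ccno* reads of OSE tissue, or in any other difference from OSE tissue, was not tested.

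Oviductal organoids were compared with oviduct tissue to see how much of this expression was kept in culture. Every tested gene had a lower level in the organoids, but not to the same degree. *Dynlrb2* had 60, 130 and 118 reads in organoids against 741, 461 and 395 in tissue, and its level fell by 2.95 on the log2 scale (SE 0.37, edgeR adjusted p = 5.55e-05). *Ccdc153* had 25, 26 and 29 reads against 386, 222 and 169 and fell by 3.93 (SE 0.26, edgeR adjusted p = 4.98e-07). *Foxj1* had 113, 74 and 71 reads against 248, 161 and 80 in the shallower tissue libraries and fell by 1.61 (SE 0.27, edgeR adjusted p = 0.000418). None of these genes overlapped between tissue and organoids in CPM, and the share of all genes without overlap was not counted.

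Of 19 genes tested, 0 were higher and 18 lower in organoids, against 18.7% higher and 24.2% lower over all 9477 genes tested. The median log2 fold change was -2.95, against -0.02 over all genes tested. *Hydin* (4.13% of its mean tissue CPM), *Tppp3* (6.11%), *Ccdc153* (6.80%), *Dnaaf2* (7.08%), *Rsph4a* (8.54%) and *Dnaaf1* (8.64%) kept the least. *Dynlrb2* kept 13.3% and *Dnali1* 18.8%. *Foxj1*, *Rsph9*, *Rfx2*, *Rsph1*, *Ak7* and *Rfx3* kept between 19.9% and 33.3%. In 1 fit of all 27 libraries the *Foxj1* difference was not called (log2 fold change -1.62, edgeR adjusted p = 0.202), nor that of *Ak7* (-2.27, adjusted p = 0.0834). *Dnaaf3* was the exception, at 94.0%, with 29, 23 and 35 reads against 26, 20 and 12 (log2 fold change -0.11, SE 0.35, edgeR adjusted p = 0.833).

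**Figure D2:**
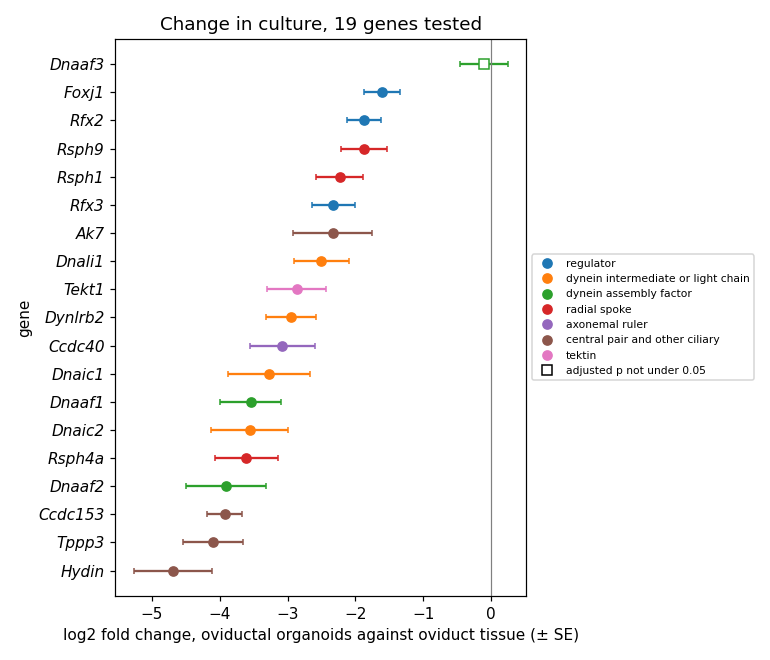
Log2 fold change of each of the 19 tested genes in oviductal organoids (3 libraries) against oviduct tissue (3 libraries), with bars of 1 SE and colours by role; the open square did not pass the threshold. The regulators *Foxj1* (-1.61), *Rfx2* (-1.87) and *Rfx3* (-2.33) sit toward the right, and *Hydin* (-4.69), *Tppp3* (-4.10) and *Ccdc153* (-3.93) at the left end.

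The reads of 2 genes within 1 library can be set against each other without any scaling. For each *Foxj1* read, oviduct tissue libraries held 2.99, 2.86 and 4.94 *Dynlrb2* reads, and oviductal organoids 0.531, 1.76 and 1.66. For the 20 structural and assembly genes together (all but the regulators and *Tppp3*), the numbers were 7.82, 7.62 and 10.9 in tissue and 1.87, 4.11 and 4.31 in organoids. The groups did not overlap in either ratio, but the ratios are not separate, since the sum includes *Dynlrb2*. In tissue it gave 741 of 1940, 461 of 1227 and 395 of 870 reads. Not every gene of the sum behaved so: *Ak7* and *Rsph9* overlapped between the groups per *Foxj1* read. *Dnaaf3* went the other way, with 0.105, 0.124 and 0.15 reads per *Foxj1* read in tissue and 0.257, 0.311 and 0.493 in organoids, again without overlap. These ratios were formed once the counts had been seen and are given as a description.

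*Ccno* and *Mcidas*, which act early in ciliated cell formation, had more reads in organoids than in tissue. *Ccno* had 16, 16 and 4 reads in organoids and 0, 1 and 0 in tissue, *Mcidas* 8, 1 and 2 against 1, 0 and 0. The tissue libraries were mostly shallower, and *Mcidas* was over the floor only in oviductal organoids 1. Both genes failed the filter on low counts. With no filter, *Ccno* was higher in organoids (log2 fold change 4.19, edgeR adjusted p = 0.000814), and DESeq2 gave 4.36 (adjusted p = 0.0165). The 7 ciliated cell markers summed to 1877 to 2954 CPM in tissue and 2294 to 2887 CPM in organoids. Most of that was *Cd24a*, which is not restricted to ciliated cells, at a mean of 1595 CPM in tissue and 2542 CPM in organoids, and the 6 other markers summed to 624 to 1217 CPM and 92.5 to 153 CPM. Epithelial markers (7 genes) summed to 1595 to 2013 CPM in tissue and 4575 to 6050 CPM in organoids, and smooth muscle markers (6 genes) to 5573 to 6991 CPM and at most 6.68 CPM. Their part in the differences was not tested. Tissue RNA was extracted with Trizol and organoid RNA with a column kit, so that extraction and culture cannot be told apart.

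Oviductal organoids were next compared with OSE organoids. In both OSE lines 18 of the 26 genes were at or under the floor, against 4 in the oviductal lines. *Dynlrb2* had 60, 130 and 118 reads in oviductal organoids and 0 and 1 in OSE organoids, a ratio of 211 with a counting interval of 37.5 to 8346. *Ccdc153* (25, 26 and 29 reads) had none and was at least 9.27-fold higher. *Dnali1* (8, 18 and 17 reads) had none and was at least 5.29-fold higher, and *Tppp3* had 26, 78 and 64 reads against 2 and 1. *Foxj1* had 113, 74 and 71 reads against 1 and 11, a log2 fold change of 3.96 (SE 0.63) that was 6.04 without OSE organoids 2. None of these 5 genes overlapped between the groups. With so few libraries many genes may separate in this way, and the share over all genes was not counted.

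None passed the threshold of edgeR: of 13 genes tested, 0 were called in either direction, with the smallest adjusted p at 0.0825 (*Dynlrb2*). Across all 9257 genes, 8 were called higher (0.0864%) and 0 lower (0%). At an unadjusted p under 0.05, 9 of the 13 genes were higher and 0 lower, beside 598 higher and 462 lower of all 9257, and their median log2 fold change was 3.96 (2.40 with bounds) against 0.01 over all genes. DESeq2 called 5 of 24 genes higher, namely *Ccdc153*, *Dnali1*, *Dynlrb2*, *Foxj1* and *Tppp3* (adjusted p from 4.76e-06 to 0.0209), and 0 lower. With OSE organoids 2 left out, edgeR called 4 genes higher (*Ccdc153*, *Dynlrb2*, *Foxj1* and *Tppp3*) and 1, *Rfx2*, lower. With OSE organoids 1 left out it called the same 4 higher. In both of these fits the lone OSE line is assumed to vary like the oviductal lines. The *Ovgp1*-rich OSE organoids 2 held 11 reads on *Foxj1*, 11 on *Tekt4* and 20 on *Dnaaf3*, against 1, 0 and 6 in OSE organoids 1. *Rfx2* (53, 44 and 32 reads against 96 and 27) and *Rfx3* (28, 15 and 9 against 10 and 25) overlapped between the origins.

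An interaction term tested whether the difference between oviduct and OSE was the same in organoids as in tissue. Of 21 genes tested, 7 had a smaller or reversed oviduct excess in organoids and 1 a larger, against 6.68% and 5% of 11458 genes. The contrast shares its libraries with the comparisons above. The oviduct excess of *Rfx3* was smaller in organoids by 2.67 on the log2 scale (SE 0.54, edgeR adjusted p = 0.00833), that of *Rsph1* by 3.74 (SE 0.79, edgeR adjusted p = 0.00969), and that of *Foxj1* by 4.15 (SE 1.08, edgeR adjusted p = 0.0268). *Dnaaf2*, *Dnaaf3*, *Rfx2* and *Tekt4* were the other genes with a smaller or reversed excess. *Dnaaf2* had no oviduct excess in organoids, with 1, 2 and 1 reads in oviductal lines against 8 and 10 in OSE lines. *Rfx2* overlapped between the origins there. *Ccno* was the gene with the larger excess: lower in oviduct than in OSE tissue, it had 16, 16 and 4 reads in oviductal organoids and 3 and 0 in OSE organoids (interaction 8.78, SE 1.46, edgeR adjusted p = 0.00276). For *Dynlrb2* the term was -0.13 (SE 1.13, edgeR adjusted p = 1), and for *Ccdc153*, unread in both OSE groups, it had no usable precision. The 7 smaller or reversed excesses fell to between 2 and 6 calls when 1 library was left out, lowest without oviduct tissue 1. *Ccno*, *Rfx3* and *Rsph1* were called in each of the 11 fits with 1 library left out. *Tekt4* was not called in 10 of them, *Rfx2* in 9, *Dnaaf3* in 8, *Foxj1* in 6 and *Dnaaf2* in 2. The *Foxj1* term ranged from -6.79 to -2.03 over these fits, and without OSE organoids 2 its edgeR adjusted p was 0.567.

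**Figure D3:**
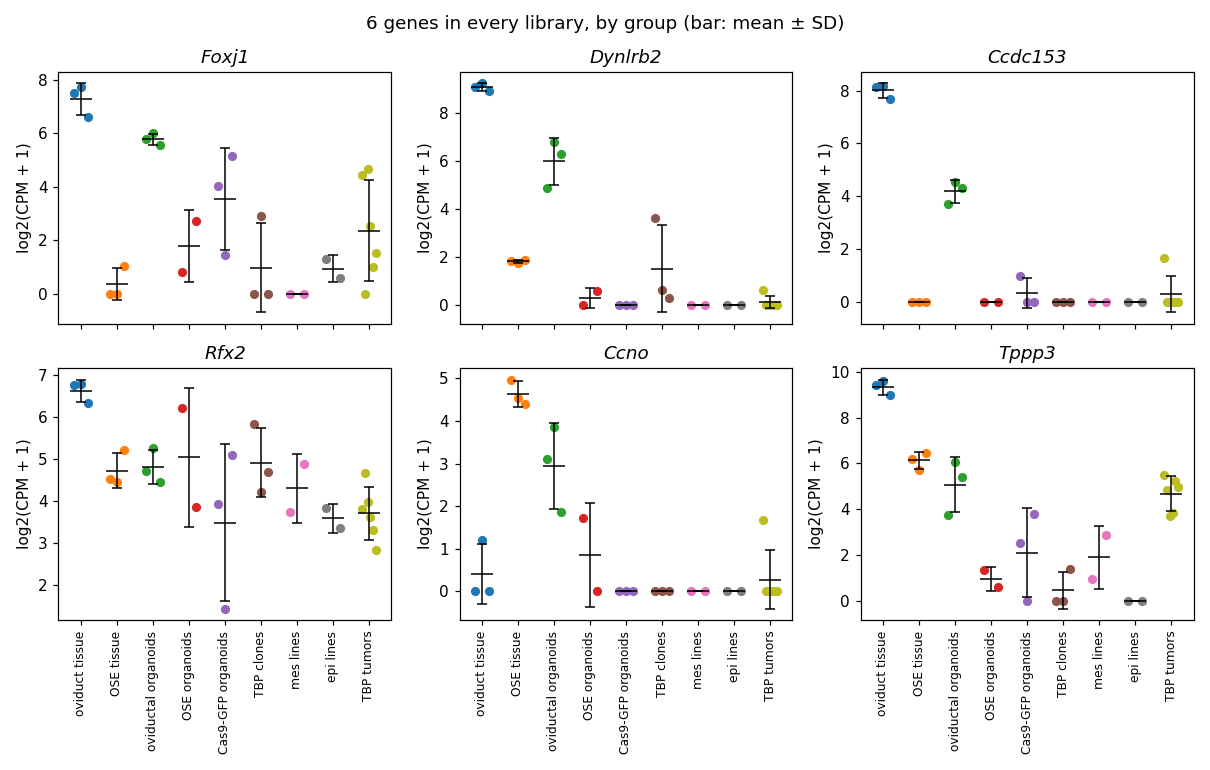
Level of 6 genes as log2(CPM + 1) in every library (points), by group, with the mean and SD of each group as bars. *Foxj1*, *Dynlrb2* and *Ccdc153* step down from oviduct tissue to oviductal organoids to the other groups, *Rfx2* is present in all groups, *Ccno* is highest in OSE tissue, and *Tppp3* is seen in OSE tissue and tumors. The high *Dynlrb2* point of the TBP clones is 1 read (11.2 CPM) in the shallow TBP clone 1.

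Cas9-GFP oviductal organoids, the parental background of the clones, were compared with C57BL/6 oviductal organoids. *Dynlrb2* and *Ccdc153* were almost unread in them, while *Foxj1*, *Rsph9* and *Tekt4* were still read. *Dynlrb2* had 0 reads in all 3 Cas9-GFP lines, which makes it at least 19.2-fold lower (edgeR adjusted p = 0.000351), and *Ccdc153* had 1, 0 and 0 reads (ratio 42.7, counting interval 7.44 to 1706, edgeR adjusted p = 0.000647). *Foxj1* had 16, 1 and 32 reads against 113, 74 and 71 and fell by 1.55 on the log2 scale (SE 0.47, edgeR adjusted p = 0.0309). *Tppp3* (5, 0 and 12 reads) fell by 2.57 (SE 0.72, adjusted p = 0.0208) and *Dnaaf3* (9, 4 and 1 reads) by 1.74 (SE 0.54, adjusted p = 0.0321) in the same edgeR fit. All but *Tppp3* were without overlap between the groups, and the share of all genes without overlap was not counted.

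Of 8 genes tested, 0 were higher and 5 lower, where 13% and 13.3% of all 8323 genes tested were. The median log2 fold change was -1.65 against 0.00. *Rfx2* (15, 1 and 31 reads), *Rfx3* (2, 1 and 11) and *Rsph9* (10, 3 and 17) overlapped between the groups and were not called. *Tekt4* had 10, 3 and 3 reads against 11, 2 and 5, at a mean of 5.98 CPM against 3.41 CPM, with overlap and below the filter. *Dnaaf2* had more reads in the Cas9-GFP lines (9, 4 and 7) than in the deeper C57BL/6 lines (1, 2 and 1). It failed the filter but was called higher by DESeq2 (log2 fold change 3.13, adjusted p = 0.0401). *Ovgp1* had 55 to 82 reads in the Cas9-GFP lines and 22305 to 48107 in the C57BL/6 lines, while *Pax8*, a secretory lineage factor, had 81 to 169 reads in the Cas9-GFP lines. Strain, transgene and the separate derivation of the lines cannot be told apart. The Cas9-GFP libraries were also shallower, at 600579 to 1038141 reads against 1455037 to 2472821. The *Foxj1* call was lost in the fit of all 27 libraries (log2 fold change -1.61, edgeR adjusted p = 0.332). The *Dnaaf3* call was lost there too (adjusted p = 0.101), with DESeq2 (0.0652), with a replicate block (0.0561) and in 4 of 6 fits with 1 library left out. The 5 calls fell to 2 without oviductal organoids 2 and to 3 without oviductal organoids 3 or Cas9-GFP organoids 2.

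In TBP clones, 17 of the 26 genes were at or under the floor in every clone. Reads on *Foxj1* were 0, 12 and 0, and reads on *Dynlrb2* were 1 in each clone, in spite of 4531767 reads in TBP clone 3. *Ccdc153*, *Hydin*, *Rsph4a*, *Dnaaf1*, *Dnali1*, *Dnaic1* and *Ccno* had 0 reads in all 3 clones. Over the floor in at least 1 clone were *Rfx2* (5, 33 and 110 reads), *Rfx3* (0, 7 and 49), *Dnaaf2* (0, 15 and 72), *Rsph9* (0, 12 and 58), *Dnaaf3* (0, 14 and 15), *Ccdc40* (0, 8 and 2), *Dnaic2* (0, 8 and 0), *Tppp3* (0, 0 and 7) and *Foxj1*. Only *Rfx2* passed the filter against Cas9-GFP organoids (log2 fold change 0.55, SE 0.69, edgeR adjusted p = 0.843), so 0 genes were called, against 0.389% higher and 0.428% lower of 7708 genes. At an unadjusted p under 0.05 edgeR called 0 genes, and DESeq2, testing 20, had 0 after adjustment and 1 lower before it. With the shallow TBP clone 1 left out the count was also 0, and with TBP clone 2 left out *Foxj1* was called lower.

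In TBP tumors most cilium genes were again near the floor, and *Tppp3* was higher than in the clones. It had 81, 32, 35, 14, 114 and 50 reads in the 6 tumors and 0, 0 and 7 in the clones, a log2 fold change of 4.70 (SE 0.83, edgeR adjusted p = 0.00182). The floor of TBP clone 1 (33.5 CPM) lay above 4 of the 6 tumors, so that its 0 reads do not separate it from them, while the other 2 clones, at 0 and 1.60 CPM, lay below all tumors (11.9 to 44.2 CPM). *Tppp3* was the one gene called higher of 4 tested, with 0 lower, where 20.1% of 10473 genes were higher and 11.7% lower. With 1 library left out in turn, *Tppp3* was called in all 9 fits, with log2 fold changes of 4.09 to 8.55. Fibroblast markers (6 genes) summed to 9650 to 56973 CPM in tumors and to at most 22.3 CPM in the clones, endothelial markers (5 genes) to 41.9 to 171 and at most 11.2 CPM, and smooth muscle markers (6 genes) to 205 to 1150 and at most 0.456 CPM. The part of these cells in *Tppp3* was not tested. Among the mes and epi lines, *Tppp3* had 2 and 13 reads in the mes lines and 0 in both epi lines.

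*Foxj1* was uneven among tumors, with 38, 0, 71, 5, 3 and 3 reads in Tumors 1 to 6. Tumor 1 and Tumor 3, where it was highest (20.7 and 24.1 CPM), also had the highest sums of epithelial markers, 1994 and 2592 CPM against 175 to 388 CPM in the other 4 tumors. These tumors held 1 and 0 reads on *Dynlrb2*, 4 and 0 on *Ccdc153*, 9 and 3 on *Ak7*, 6 and 3 on *Rsph1*, 0 and 7 on *Dnaic2*, and 0 on *Hydin*. For each *Foxj1* read they held 1.24 and 0.831 reads of the 20 structural and assembly genes. Tumors 4, 5 and 6, with 3 to 5 reads on *Foxj1*, held 2.6, 14.7 and 6.0, and oviduct tissue held 7.62 to 10.9. Tumors 1 and 3 were singled out for their *Foxj1* reads, which are also the divisor. *Tmem212*, another ciliated cell marker, had 34 reads in Tumor 3 and at most 1 in any other tumor. Of the other such markers besides *Cd24a*, *Sntn* had 0 reads in all 6 tumors, *Fam183b* and *Cdhr3* at most 2, and *Pifo* at most 12.

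**Figure D4:**
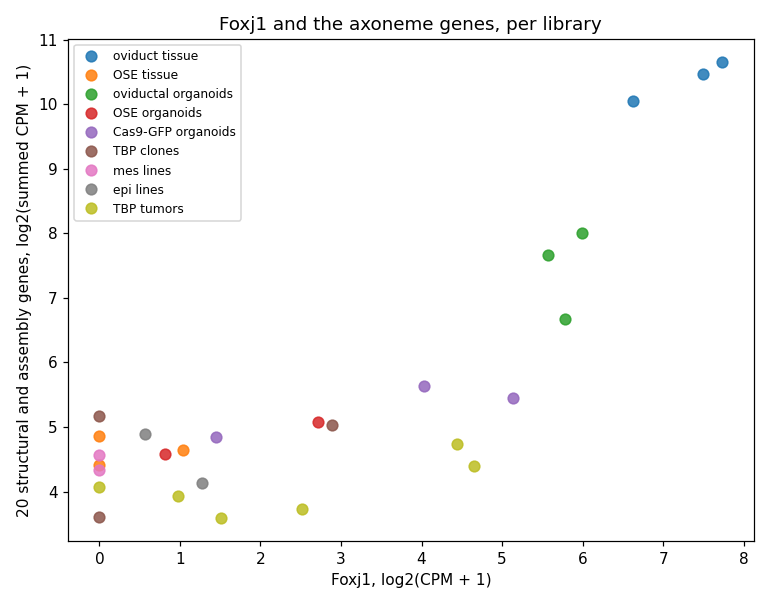
*Foxj1* level (horizontal) against the summed level of the 20 structural and assembly genes (vertical), both as log2(CPM + 1), with 1 point for each of the 27 libraries coloured by group. Oviduct tissue sits at the top right and oviductal organoids below it, while Cas9-GFP organoids 3, Tumor 1 and Tumor 3 combine 20.7 to 34.2 CPM of *Foxj1* with sums of at most 42.8 CPM, below the 101 to 257 CPM of the oviductal organoids.

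Against oviduct tissue, tumors were lower in all 19 genes tested and higher in 0, where 22.4% of 10827 genes were lower and 23.7% higher. The median log2 fold change was -5.35 (-5.18 with bounds) against 0.08. Genes nearly or wholly unread in tumors passed the filter on low counts through oviduct tissue alone. They could only come out lower, so the tally and the median lean that way. *Dynlrb2* had a total of 1 read in 6 tumors against 1597 in 3 tissue libraries (ratio 6326, counting interval 1134 to 250028, edgeR adjusted p = 2.79e-07), and *Hydin* and *Dnaaf1* had 0 reads in tumors. The differences were smaller for *Dnaaf2*, whose level fell by 1.42 (SE 0.33), *Rfx3*, which fell by 2.31 (SE 0.38), and *Rfx2*, which fell by 2.97 (SE 0.34). Fibroblast markers were at 3807 to 7022 CPM in oviduct tissue, so that the cell make-up differed as well, and its part was not tested.

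Between mes and epi tumor-derived organoids, 4 genes could be tested (*Dnaaf2*, *Rfx2*, *Rfx3* and *Rsph9*). None was called in either direction (0 by edgeR and 0 by DESeq2, against 1% of 9775 genes higher and 0.123% lower), and edgeR had 0 at an unadjusted p under 0.05 where DESeq2 had 1. *Rfx2* had 27 and 59 reads in mes lines and 28 and 19 in epi lines (log2 fold change 0.87, SE 0.59). *Foxj1* had 0 and 0 reads against 3 and 1. No read fell on *Dynlrb2*, *Ccdc153*, *Hydin*, *Ak7*, *Dnaic1*, *Dnali1*, *Ccno* or *Mcidas* in any of the 4 lines.

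Of the genes listed under older symbols, *Dnahc5* (*Dnah5*), a heavy chain of the outer dynein arm, had 140, 121 and 55 reads in oviduct tissue, a total of 1 in OSE tissue, and 0, 1 and 0 in oviductal organoids. *Dnahc10* had 57 reads in tissue and 0 in organoids, and *Dnahc9* 91 and 4. *Dnahc6* kept 18 reads of 111. Of the 44 entries, 17 were tested between tissues with 16 higher and 0 lower, where 26.9% and 24.3% of all genes were. Between organoids and oviduct tissue 24 were tested with 0 higher and 19 lower (median log2 fold change -2.56), where 18.7% and 24.2% were. In Cas9-GFP against C57BL/6 organoids 1 was higher and 1 lower of 6 (median 0.28), where 13% and 13.3% were. *Gtl3* (*Cfap20*), *Ccdc104* (*Cfap36*) and 1110004E09Rik (*Cfap298*) were read in every group, with 835, 378 and 518 reads over the tumors. Between oviductal and OSE organoids 0 of 12 were called by edgeR, 5 were higher and 1 lower at an unadjusted p under 0.05, and DESeq2 called 2 higher. Between tumors and oviduct tissue 21 of 24 were lower, where 22.4% of all genes were.

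Other genes of the pathway were counted from lists written from general knowledge, to be read against the 26.9% higher and 24.3% lower of all genes between the tissues, 18.7% and 24.2% in culture, and 23.7% and 22.4% in tumors against oviduct tissue. Of 89 axoneme genes outside the 26, 8 of which are also among the older symbols above, 60 were tested between the tissues, and 59 were higher and 0 lower in oviduct (median log2 fold change 5.85), among them *Lrrc48*, of the nexin-dynein regulatory complex, by 5.37 (SE 0.30). In culture 65 of 69 were lower and 0 higher. Intraflagellar transport genes, which primary cilia need too, differed less: 20 of 23 were higher in oviduct tissue with a median of 1.40, and 10 of 26 were lower and 1 higher in culture with a median of -0.57. *Ift172* was higher in oviduct tissue by 2.20 (SE 0.22) and *Ift57* by 2.15 (SE 0.22). Of 19 other regulators and basal body genes, 10 were tested between the tissues, with 6 higher and 2 lower. *Cetn4*, a centrin of the basal body, was higher by 4.90 (SE 0.27). *E2f5*, a factor of centriole production, was 0.79 lower on the log2 scale in oviduct tissue (SE 0.26). In culture 5 of 12 were lower and 2 higher. In tumors against oviduct tissue, 67 of 69 axoneme genes, 17 of 26 transport genes and 9 of 14 regulators were lower, and 0, 0 and 2 were higher. Between oviductal and OSE organoids 0 genes of these 3 lists were called by edgeR, while 21, 4 and 3 were higher and 0 lower at an unadjusted p under 0.05 and DESeq2 called 10, 0 and 2 higher, for axoneme, transport and regulator genes in that order.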

How the data were processed

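The authors made 27 bulk CEL-Seq2 libraries, which tag the 3′ end of transcripts, and deposited a table of raw counts for each gene, without correction by unique molecular identifiers. The submitters' processing notes name BWA and GRCm38, and DESeq2 1.18.0. Of 18306 entries, 1 spike-in with 1 count was left out. Libraries were matched to groups by column names and labels. Total counts were 82239 to 4531767. Among 33 replicate pairs none agreed within sampling noise (lowest chi-square per gene 2.53). Counts were not divided by gene length, so an order of genes by CPM, or a ratio of reads between genes, also depends on how well each transcript's 3′ end was captured.

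Pairs of groups were tested on counts with edgeR 4.0.16 (quasi-likelihood, TMM, low counts removed by filterByExpr) under R 4.3.3. A gene unread in 1 group can pass this filter through the other group alone, and its direction is then fixed. This bears on the counts of called genes and medians of every comparison and list. Adjusted p-values (Benjamini-Hochberg) cover all genes tested, with a threshold of 0.05. A test of the procedure on simulated data changed only well-read genes and gave all genes the same spread between replicates. It therefore does not speak for genes near the floor. A group without reads was set to the floor of 3 counts per library ("at least"), and with 1 to 3 reads in all the ratio of pooled rates carries a 95% exact interval for counting error only. Alternatives were DESeq2 1.42.0, RLE size factors, no filter, all 27 libraries fitted together, omission of single libraries, and a replicate block.

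Promoters are RefSeq entries, and gene positions come from GENCODE M21. The members and lists were chosen with earlier results of these data known. Named are the regulators, the 10 members highest in oviduct tissue, up to 8 called members per comparison by p and all in the rarer direction, those over 3 reads in every OSE tissue library, up to 6 by interaction and up to 5 per other list. Others were singled out after their values were seen. Some targeted genes are not reported here. Figures were drawn with matplotlib 3.10.9.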

Additional observations from a re-analysis of the deposited data

Results flagged for a closer look

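The oviduct excess over OSE differed between organoids and tissue, by the interaction term of edgeR, for 8 genes. It was larger in organoids for *Ccno* (8.78 on the log2 scale). It was smaller or reversed for *Rfx3* (-2.67), *Rsph1* (-3.74), *Dnaaf2* (-3.32), *Foxj1* (-4.15), *Dnaaf3* (-3.21), *Rfx2* (-2.41) and *Tekt4* (-6.58). OSE organoids 2, the line rich in *Ovgp1*, enters all 8 values, and without it *Dnaaf3*, *Foxj1* and *Tekt4* were not called.

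Among tumors, *Dnaaf2* was highest in Tumor 2, at 7.87 CPM from 9 reads, a gap to the next tumor that is wide for 6 values by Dixon's test. Such a gap is met by chance in about 1 of 20 groups, and 8 quantities were examined.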

How the results depend on the processing

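RLE size factors changed no call. Oviductal against OSE organoids was the comparison most open to the method: 5 genes were higher by DESeq2, 4 with no filter and 4 with all 27 libraries in 1 fit, where 1 (*Dnaaf2*) was lower. With 1 library left out, 0 to 4 were higher and 0 to 1 lower. *Ccno* was the 1 gene higher in oviductal organoids than in oviduct tissue by DESeq2, by no filter and by the joint fit (0 to 1 with 1 library left out). *Dnaaf2* was the 1 gene higher in Cas9-GFP than in C57BL/6 organoids under the same 3 settings (0 to 1 with 1 left out), while 8 were lower with no filter and 2 to 6 with 1 library left out. In clones 2 genes (*Foxj1* and *Tekt4*) were lower with no filter and 0 to 1 with 1 library left out. Between tumors and clones 2 (*Dnaaf2* and *Dnaaf3*) were lower in the joint fit and 0 to 1 with 1 left out, the 1 being *Dnaaf2* without the shallow TBP clone 1. Interaction calls, 1 higher and 7 lower with all libraries and 1 and 8 by DESeq2, were 1 to 2 higher and 2 to 6 lower with 1 library left out. Signs turned for *Dynlrb2* (0.12 by DESeq2, -0.77 to 1.86 with 1 library left out) and *Dnali1* (-0.30 by DESeq2, -0.23 to 0.74) in the interaction, and with 1 library left out for *Rfx2* (-1.37 to 1.01) and *Rfx3* (-0.24 to 0.51) between organoids, *Rsph9* in Cas9-GFP organoids (-0.87 to 0.049) and *Rfx3* between mes and epi lines (-0.27 to 1.35); none of these was called with all libraries. Of 965 values for named genes, 886 kept direction and call, 41 lost the call, 26 gained it and 12 turned. The cause of these changes was not tested.

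Without TMM, the summed level of 25 members (all but *Tppp3*) in OSE tissue was 95.9 CPM. At over 10 reads in every library, 3 members were detected in OSE tissue, 8 in oviductal organoids, 0 in Cas9-GFP organoids and 1 in tumors, and at 1 or more reads 8 in Cas9-GFP organoids. Pairing by replicate number, or for mes and epi lines by the shared sample, was weak but regular. Deviations of such pairs correlated at 0.0119 to 0.1137. In each comparison of 3 with 3 libraries, all of them exceeded the pairs with unlike numbers (-0.0915 to 0.0275). Between the organoid origins, an unlike pair reached 0.0849. What the shared number stands for was not tested. The mes and epi lines are too few for these correlations to decide whether they are paired. The paper shows the tumors of T1-mes and T2-epi in the same mouse, grown from the same clone. With a replicate block 4 genes rather than 5 were lower in Cas9-GFP organoids, *Dnaaf3* being lost, and the counts of the other blocked comparisons did not change. Lines 1 and 2 of each organoid origin without the block, a fit added after seeing the data, also gave 0 calls. At 82239 reads, TBP clone 1 cannot show genes below 33.5 CPM.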
